A study of Homo sapiens with 12 samples.

Results

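The additivity of the HIF1A and HIF2A knockdowns was examined in all 12 of the 12 bulk RNA-seq libraries of the series, which form a design of 2 siRNAs, each present or absent. RCC4 is a human cell line from a clear cell kidney cancer that lacks working VHL, a background shared by all 4 groups. Cells were reverse transfected with pools of siRNA at 2 nM in total and had 3 libraries per group. The groups received 2 nM control siRNA, 1 nM HIF1A siRNA with 1 nM control siRNA, 1 nM HIF2A siRNA (against EPAS1) with 1 nM control siRNA, or 1 nM of each HIF siRNA (the double knockdown), and RNA was taken at 48 h. The dose of control siRNA therefore fell from 2 nM to 1 nM to 0 nM as HIF siRNAs were added, so that these doses sum to 0 in the interaction but not in a single comparison with control siRNA; whether an effect of control siRNA is proportional to its dose on the log2 scale, as it must be to cancel, was not tested. The 3 libraries of a group come from 1 cell line, so that p-values measure the spread between its replicates and not between tumors.

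For every gene the interaction was the log2 level in the double knockdown, minus that with HIF1A siRNA, minus that with HIF2A siRNA, plus that with control siRNA. An interaction of 0 means that the fold changes of the single siRNAs multiply. A gene lowered further than that product has an interaction below 0. Levels are given as CPM, the count as a share of the library's total, scaled by TMM to a common total in the usual CPM unit, and are compared only between libraries for the same gene. The test was edgeR's quasi-likelihood test over 13000 genes with the replicate number as a block, Benjamini-Hochberg adjustment and a limit of 0.05 on the adjusted p.

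HIF-1α and HIF-2α are the oxygen-regulated subunits of the hypoxia-inducible transcription factors. Both pair with HIF-1β, the product of ARNT, and bind the same short DNA core, and both are degraded through VHL when oxygen is present. In clear cell renal carcinoma, loss of VHL leaves them active. HIF-1 is best known for glycolytic and mitophagy genes and HIF-2 for growth and angiogenic genes, while some targets are bound by both.

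The core motif ACGTG, searched on both strands, was present in 21.4% of 35116 human promoter entries of RefSeq (GRCh38.p14, 250 bases before to 50 bases after the start). A CACGTG, which reads the same on both strands, was counted as 2 overlapping matches. Of the 194 genes lowered by a single siRNA, 141 had an entry and 75 of these (53.2%) held the motif, against 32.5% of the 9473 tested genes with an entry. Among the 84 genes classed as additive below, 64 had an entry and 40 (62.5%) held it. The other classes searched lay near the share of all tested genes. The motif was in 3 of 8 genes additive with both siRNAs (37.5%) and 5 of 15 opposing genes (33.3%). Among genes of redundant form it was in 6 of 24 that fell (25%) and 6 of 17 that rose (35.3%). Genes classed below as undecided were not searched as a class, so the motif is not shown to be particular to additive genes. The 5 promoter stretches printed here, each 60 bases upstream of the start, show the motif in genes of 4 of the patterns described below: CA9, whose change was opposite with the single siRNAs, DDIT4 and ENO2, which fell further with both siRNAs than with either, BNIP3, which followed HIF1A siRNA alone, and RASSF2, to which both siRNAs added. Capitals mark the motif.
CA9 (chr9:35673868-35673927, plus strand, GRCh38.p14): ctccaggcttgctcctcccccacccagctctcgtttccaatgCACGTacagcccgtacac
DDIT4 (chr10:72273771-72273830, plus strand, GRCh38.p14): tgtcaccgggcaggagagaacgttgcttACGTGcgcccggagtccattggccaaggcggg
ENO2 (chr12:6914434-6914493, plus strand, GRCh38.p14): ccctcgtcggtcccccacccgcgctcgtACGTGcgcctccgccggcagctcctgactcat
BNIP3 (chr10:131982025-131982084, minus strand, GRCh38.p14): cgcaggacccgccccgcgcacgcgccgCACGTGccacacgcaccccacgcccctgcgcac
RASSF2 (chr20:4815161-4815220, minus strand, GRCh38.p14): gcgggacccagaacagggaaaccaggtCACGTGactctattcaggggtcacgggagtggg
The promoter entries of SLC2A1, EGLN3, CA12 and SLC44A1 held no ACGTG in this window. A match describes the letters only.

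The targeted mRNAs matched the labels in every library. HIF1A mRNA was at 120, 58.2 and 112 CPM with control siRNA (replicates 1, 2 and 3), at 14.99, 17.8 and 22.2 with HIF1A siRNA, at 111, 117 and 136 under HIF2A siRNA and at 24.2, 32.2 and 29.8 in the double knockdown. It was thus lowest with HIF1A siRNA alone, and the double knockdown libraries lay above all 3 of these. The fitted level was 19.1% of control with HIF1A siRNA and 30.1% in the double knockdown. EPAS1 mRNA fell to 6.40% of control with HIF2A siRNA and to 5.61% in the double knockdown. For neither target did the test call an interaction (HIF1A 0.32, 95% interval -0.30 to 0.94; EPAS1 0.28, interval -0.24 to 0.80). Whether the higher remaining HIF1A mRNA in the double knockdown moved any other gene was not tested. ARNT passed the test in the double knockdown only, where it fell by 0.46 on the log2 scale (adjusted p = 0.0215 by edgeR quasi-likelihood, Benjamini-Hochberg), with an interaction of -0.06.

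Total counts ran from 13263200 to 20451400 per library and TMM factors from 0.980 to 1.02. Renal epithelial and tumor markers were present in every library (PAX8 197 to 315 CPM, KRT8 366 to 570, VIM 2927 to 5433), while PTPRC, CD3E and PECAM1, markers of leukocytes, T cells and endothelium, had 0 counts in all 12 libraries. The endothelial genes VWF and CDH5 reached at most 0.390 and 0.432 CPM. Other genes looked at as markers of absent cell types were present in every library. CD68, taken as an immune marker, was at 32.6 to 65.1 CPM. The pericyte genes RGS5 and ACTA2 were at 1.73 to 10.4 and 7.26 to 14.7 CPM. The interaction was measured less precisely than a single comparison, since it adds the error of 4 groups. Computed within 1 replicate number, it had an interquartile range over genes of 0.64 in replicate 1, 0.84 in replicate 2 and 0.38 in replicate 3. Over the 9286 genes at 10 CPM or more, the values of replicates 1 and 2 correlated at -0.54, those of replicates 1 and 3 at -0.10 and those of replicates 2 and 3 at 0.10. These correlations are across genes, which are not independent replicates, and describe how little of the interaction of a typical gene was shared between replicate numbers.

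More genes changed when both HIF mRNAs were lowered than with either siRNA alone, and no single gene departed from additivity at the chosen limit. HIF1A siRNA changed 181 genes (1.39% of those tested), of which 173 fell (1.33%). HIF2A siRNA changed 26 (0.2%), of which 25 fell (0.192%). In the double knockdown 1336 genes changed (10.3%), 834 of them downward (6.42%) and 502 upward (3.86%). The 3 comparisons share the control libraries. Without the replicate block these counts were 47, 2 and 195.

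The interaction itself was called in 0 of 13000 genes by edgeR's quasi-likelihood test. At an unadjusted p under 0.05 there were 318 genes (2.45%), 203 with an interaction below 0 (1.56%) and 115 above 0 (0.885%). This is less than the share of 0.05 that such a limit passes when every gene is additive. The count is therefore no evidence of departures, and a count under that share is no evidence of additivity either. At an adjusted p under 0.1 there were 3 genes (0.0231%), SLC2A1, EGLN3 and CA12, all lowered further by both siRNAs than the product of the single changes. DESeq2, with the same block, called 11 genes at 0.05, of which 10 had an interaction below 0. Leaving out the HIF2A siRNA library of replicate 1 gave 3 genes and leaving out that of replicate 2 gave 1, whereas the other 13 omissions of a library or replicate number gave 0.

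SLC2A1, which encodes the glucose transporter GLUT1, had the smallest p. Its mRNA was at 1537, 1577 and 1595 CPM with control siRNA, 1216, 1165 and 1150 with HIF1A siRNA, 941, 935 and 936 under HIF2A siRNA and 429, 357 and 349 in the double knockdown. The groups did not overlap, and the double knockdown lay lowest in each replicate. SLC2A1 fell to 74.9% of control with HIF1A siRNA and to 59.7% with HIF2A siRNA, from which additive fold changes would give 44.7%. The fitted level with both was 24.0%. The interaction was -0.90 (standard error 0.13, 95% interval -1.18 to -0.61, adjusted p = 0.0649 by edgeR quasi-likelihood, Benjamini-Hochberg), with -0.79, -0.95 and -0.95 in the 3 replicates. Over the 23 other fits on the log2 scale it lay between -0.99 and -0.84, with an adjusted p from 1.5e-06 to 1.

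EGLN3 encodes PHD3, a prolyl hydroxylase that marks HIF-α for degradation and is itself induced by HIF. Its level was 91.3, 102 and 87.6 CPM with control siRNA, 55.9, 64.6 and 47.3 with HIF1A siRNA, 71.6, 94.4 and 79.98 under HIF2A siRNA and 24.1, 25.1 and 16.0 in the double knockdown. Control and HIF2A siRNA libraries overlapped, and the double knockdown stood apart from the rest. Additive fold changes would leave 51.8% of control, and 23.0% remained. The interaction was -1.18 (standard error 0.18, interval -1.56 to -0.79, adjusted p = 0.0649 by edgeR quasi-likelihood, Benjamini-Hochberg), and the other log2 fits gave -1.37 to -1.04.

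CA12, a membrane carbonic anhydrase that helps set pH outside the cell, was at 89.5, 82.3 and 54.1 CPM with control siRNA, 64.4, 70.6 and 31.8 with HIF1A siRNA, 60.2, 76.0 and 36.0 under HIF2A siRNA and 21.4, 24.0 and 10.2 in the double knockdown. Replicate 3 was the lowest in all 4 groups. Neither single siRNA passed the test (adjusted p = 0.091 and 0.37 by edgeR quasi-likelihood, Benjamini-Hochberg), and the product of their fitted changes would leave 52.9% of control where 23.6% was measured. The interaction was -1.16 (standard error 0.18, interval -1.55 to -0.77, adjusted p = 0.0649), with -0.996, -1.42 and -1.02 by replicate.

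**Figure D1:**
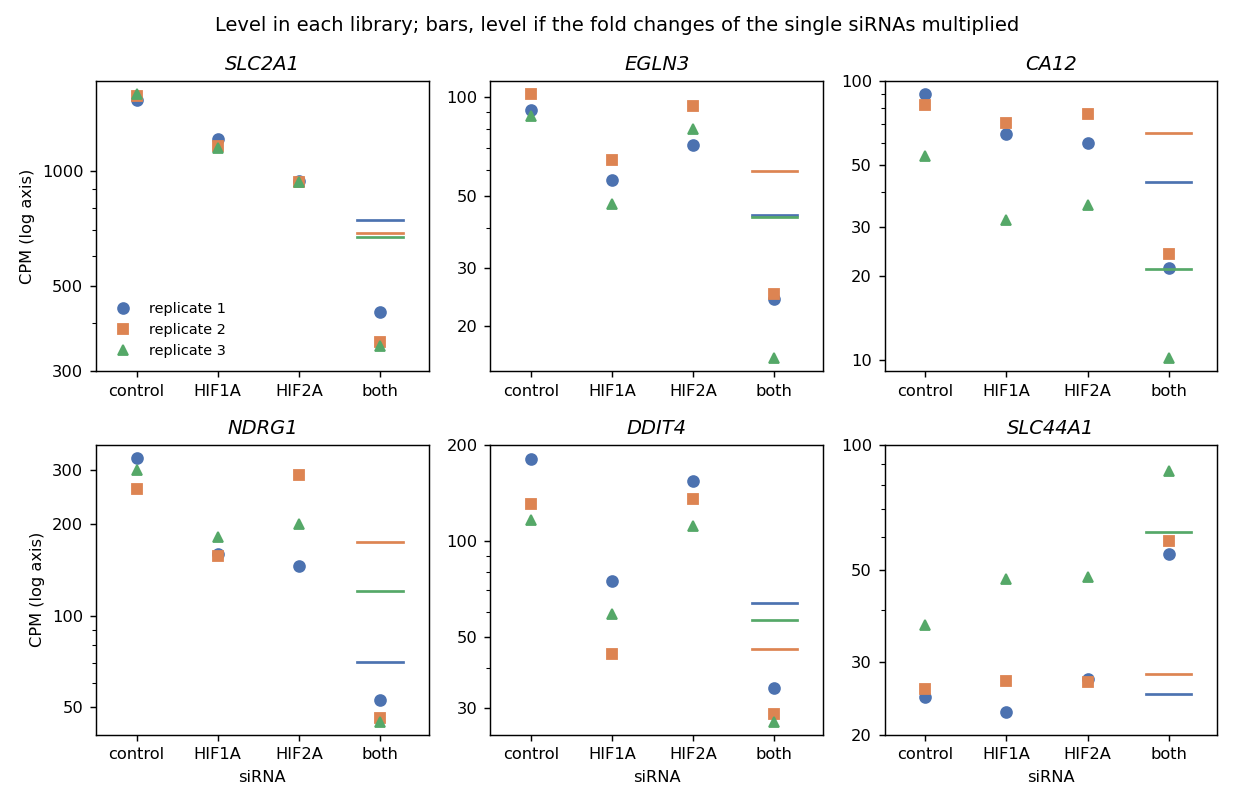
CPM of 6 genes in each of the 12 libraries (log axis, symbols by replicate number), grouped by siRNA. Short bars over the double knockdown give the level expected in that replicate if the fold changes of the single siRNAs multiplied; in every replicate of SLC2A1, EGLN3, CA12, NDRG1 and DDIT4 the measured level is under its bar, and for SLC44A1 it is above.

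NDRG1, a stress-responsive gene induced by hypoxia, and SLC44A1, a choline transporter, completed the 5 smallest p-values. NDRG1 was at 330, 260 and 301 CPM with control siRNA, 160, 157 and 182 with HIF1A siRNA, 146, 289 and 200 under HIF2A siRNA and 52.9, 46.2 and 44.9 in the double knockdown. The HIF2A siRNA libraries spread widely, and the interaction of NDRG1 varied with them, from -0.41 in replicate 1 to -1.91 in replicate 2 and -1.42 in replicate 3. Its estimate was -1.28 (interval -1.85 to -0.72), which was not called in the main fit (adjusted p = 0.456 by edgeR quasi-likelihood, Benjamini-Hochberg). The same test called it without HIF2A siRNA replicate 1 (adjusted p = 0.0177). With all libraries, it was also called by edgeR's test without the filter on low counts (adjusted p = 0.0108) and by DESeq2 (adjusted p = 0.00736). SLC44A1 ran the other way. Its level was 24.7, 25.7 and 36.8 CPM with control siRNA, 22.7, 26.9 and 47.3 with HIF1A siRNA, 27.3, 26.8 and 48.0 under HIF2A siRNA and 54.4, 58.5 and 86.4 in the double knockdown, which exceeded every other library. Only the double knockdown passed the test, at 227% of control where additive changes would give 124%, with an interaction of 0.88 (interval 0.51 to 1.24, unadjusted p = 0.00013 from edgeR's quasi-likelihood test).

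DDIT4, an inhibitor of mTORC1 signalling, fell to 41.9% of control with HIF1A siRNA and stood at 94.8% with HIF2A siRNA, and additive changes would leave 39.7%. Its level was 34.7, 28.8 and 27.2 CPM in the double knockdown against 75.0, 44.2 and 59.1 with HIF1A siRNA, so that these groups did not overlap. The double knockdown held 21.5% of control, an interaction of -0.89 (interval -1.28 to -0.49). HIF2A siRNA alone left DDIT4 near control, whereas in cells that also received HIF1A siRNA its level was lower in each replicate. ENO2, the neuronal enolase of glycolysis, had the same shape, with 32.7% of control after HIF1A siRNA, 98.9% after HIF2A siRNA and 22.6% after both (interaction -0.52, interval -0.83 to -0.21, and -0.57, -0.43 and -0.57 by replicate). Neither interaction was called by edgeR, and DESeq2 called that of DDIT4 (adjusted p = 0.0155) but not that of ENO2.

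Redundancy was defined as a change in the double knockdown with a called interaction where neither single siRNA had an unadjusted p under 0.05. edgeR's test called 0 such genes and DESeq2 called 4, RNASET2, RAB42, APOL1 and SLC44A1. The interaction was then taken at its unadjusted p under 0.05. Of 13000 tested genes, 40 that fell in the double knockdown and 20 that rose then had this form. RNASET2, a secreted and lysosomal ribonuclease, was at 85.8, 111 and 109 CPM with control siRNA, 98.0, 78.5 and 89.0 with HIF1A siRNA, 96.8, 86.0 and 90.7 under HIF2A siRNA and 41.4, 43.9 and 46.7 in the double knockdown. The single siRNA libraries overlapped the controls, and the double knockdown lay lower than all of them. APOL1, an apolipoprotein of the innate defence against trypanosomes, showed 92.1% of control with HIF1A siRNA, 86.1% with HIF2A siRNA and 50.2% with both. Its double knockdown libraries, at 151, 151 and 119 CPM, were lower than the other 9 libraries, the lowest of which was at 208. RAB42, a small GTPase, went from 17.6 ± 3.24 CPM (SD, n = 3) with control siRNA to 6.99 ± 2.45 (SD, n = 3) in the double knockdown, with 18.5 and 14.8 as the means of the single siRNAs. HIPK2, a protein kinase that acts on p53, rose to 173% of control with both siRNAs and was at 101 and 112% with either (interaction 0.61, interval 0.30 to 0.93). These genes beyond the 5 smallest p-values were chosen after their values were seen.

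Whether departures at an unadjusted p carry over was looked at by choosing genes on 2 replicate numbers and measuring the interaction in the third. In most cases they did not. Genes chosen for an interaction below 0 had a median of 0.37 in replicate 1 (541 genes) and 0.34 in replicate 2 (339 genes), the opposite sign, and kept theirs only in replicate 3 (-0.18, 103 genes). Those chosen for an interaction above 0 had medians of -0.44, -0.49 and -0.11 in the replicate left out. Genes picked at an unadjusted p are therefore given here as values only.

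Additivity was asked of the 203 genes (1.56%) that changed with at least 1 single siRNA. A gene was classed as additive where the 95% interval of its interaction lay within 1.5-fold of 0 in both directions, that is within 0.58 on the log2 scale. This held for 84 of the 203 (0.646% of all tested genes), while 119 were undecided because the interval reached beyond the limit, and 0 had a called interaction. Over all genes the interval lay inside the limit for 42.8%, near the share that 84 is of 203. An interval inside the limit therefore does not set the genes that changed with a single siRNA apart from other genes. Without the replicate block 5 genes were classed as additive and 44 as undecided, and limits of 2-fold and of the narrower fold tried gave 164 and 3 additive genes. The number depends on the libraries as well, from 3 without replicate 3 to 173 without HIF2A siRNA replicate 2.

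Of the 84 additive genes, 74 were called with HIF1A siRNA and 10 with HIF2A siRNA. BNIP3, a receptor of mitophagy, had 753, 754 and 517 CPM with control siRNA, 155, 140 and 107 with HIF1A siRNA, 824, 780 and 565 under HIF2A siRNA and 157, 140 and 104 in the double knockdown. The libraries with HIF1A siRNA and those with both siRNAs overlapped fully, at 19.9 and 19.8% of control. The interaction of BNIP3 was -0.11 (interval -0.38 to 0.16). PGK1, a glycolytic kinase, behaved alike, with 36.3% of control after HIF1A siRNA, 108% after HIF2A siRNA and 35.2% after both (interaction -0.15, interval -0.46 to 0.16). BNIP3L, the mitophagy relative of BNIP3, LOX, a collagen crosslinking enzyme, KCTD11, HILPDA, a lipid droplet protein, ANKZF1 and SLC16A3, the lactate exporter MCT4, had interactions from -0.17 to -0.08, all with intervals inside the limit.

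A measurable share from each siRNA was required for the second kind of additivity, in which both had an unadjusted p under 0.05 in the same direction. It was met by 8 genes (0.0615%), 5 that fell in the double knockdown, RASSF2, SNX25, FAM219A, STC2 and IDS, and 3 that rose, MIDN, HOGA1 and AP1M2. RASSF2, a candidate tumor suppressor of the Ras association family, was at 76.0, 58.3 and 90.2 CPM with control siRNA, 38.8, 43.1 and 61.1 with HIF1A siRNA, 46.1, 41.6 and 65.0 under HIF2A siRNA and 25.6, 20.2 and 45.8 with both. In each replicate the order was control, then a single siRNA, then both. The single siRNAs left 63.4 and 67.6% of control, their product is 42.9%, and 39.5% was measured (interaction -0.12, interval -0.54 to 0.30). SNX25, a sorting nexin, gave 59.2, 76.1 and 42.4% against an expected 45.1%. Stanniocalcin 2 (STC2), a secreted glycoprotein, gave 61.4, 85.5 and 45.7% against 52.5%. MIDN, which encodes midnolin, rose from 38.4, 39.6 and 42.3 CPM with control siRNA to 84.3, 90.4 and 91.7 in the double knockdown, with no overlap, and its 221% of control compares with an expected 200%. HOGA1, a mitochondrial aldolase, was at 189% where 200% was expected.

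**Figure D2:**
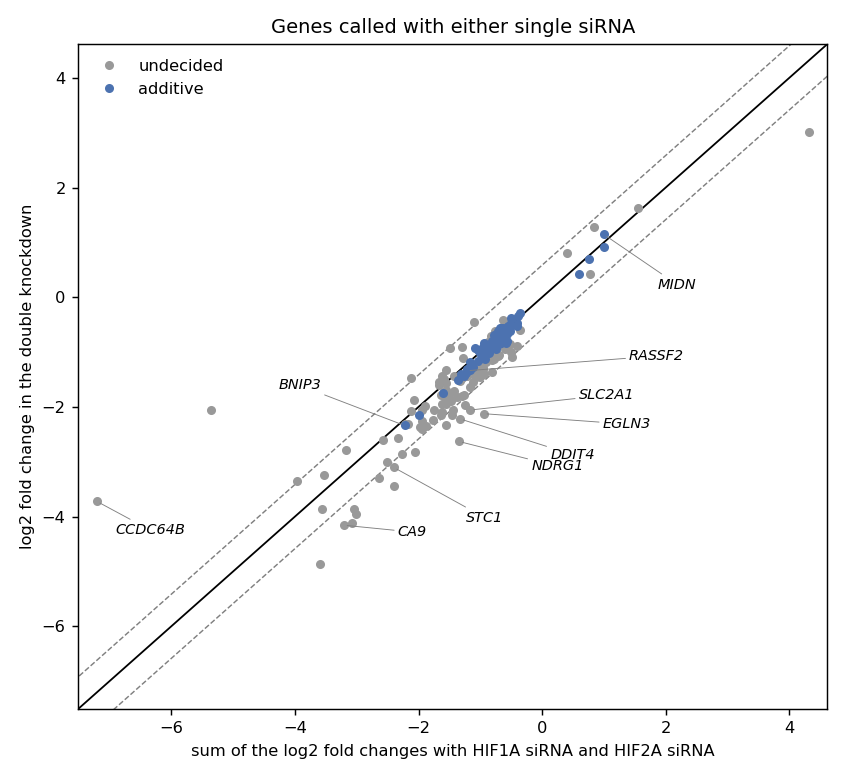
Each point is 1 of 201 genes called with HIF1A siRNA or HIF2A siRNA, HIF1A and EPAS1 left out; the x axis is the sum of the log2 fold changes of the single siRNAs, the y axis the log2 fold change in the double knockdown. The solid line marks exact additivity and the dashed lines 1.5-fold around it; blue points are the genes classed as additive, and most grey points with sums below 0 lie under the solid line.

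Of 13000 tested genes only 4 changed with both single siRNAs, SLC2A1, VEGFA, C10orf10 and C15orf48, and each had an interaction below 0. VEGFA, the main angiogenic ligand of this tumor, was at 249, 261 and 194 CPM with control siRNA, 130, 160 and 118 with HIF1A siRNA, 157, 165 and 118 under HIF2A siRNA and 66.9, 66.5 and 55.7 in the double knockdown. The single siRNA groups overlapped each other and lay between the other groups. The single siRNAs left 58.0 and 62.4% of control, additive fold changes would leave 36.2%, and 27.02% remained. The interaction of -0.42 (interval -0.72 to -0.12) had an adjusted p of 0.999 by the edgeR quasi-likelihood fit, Benjamini-Hochberg adjusted. If losses in CPM, rather than fold changes, were added, 20.4% would be expected, so that VEGFA lay under the one expectation and over the other. C10orf10 (DEPP1), a regulator of autophagy, held 19.4% against 25.3% by fold changes, and C15orf48, a mitochondrial complex subunit, 26.0% against 34.2%. Their intervals included 0 (-0.88 to 0.10 and -0.80 to 0.01).

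Other known HIF targets were not classed as additive, some for their spread between replicates and some because no single siRNA was called. ADM, which encodes the vasodilator adrenomedullin, was at 108, 113 and 36.1 CPM with control siRNA, 74.9, 51.0 and 17.3 with HIF1A siRNA, 84.8, 42.4 and 20.3 under HIF2A siRNA and 21.4, 21.8 and 9.06 in the double knockdown. Replicate 3 was the lowest in each group, and the interaction of ADM was -1.44 in replicate 1 but 0.19 in replicate 2 and -0.08 in replicate 3 (estimate -0.49, interval -1.04 to 0.07). NDUFA4L2, a mitochondrial protein induced by HIF-1, followed HIF1A siRNA at the fitted level, with 26.1% of control, 99.8% with HIF2A siRNA and 24.0% with both, yet its interaction ran from -0.82 to 1.10 between replicates. MAP1B, a microtubule-associated protein, passed the test only in the double knockdown, at 46.9% of control where the fold changes with the single siRNAs, 71.4 and 64.2%, would leave 45.8% (interaction 0.03, interval -0.42 to 0.48). Additive changes thus described MAP1B although neither single change was called. ANGPTL4, a secreted regulator of lipoprotein lipase, also passed only in the double knockdown, at 22.5% against 43.8%, with an interval of its interaction from -1.94 to 0.02.

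The scale mattered for genes that both siRNAs lowered. With the interaction measured in CPM relative to the gene's mean, 0 genes were called and 294 had an unadjusted p under 0.05. Signs on the 2 scales were compared in the named genes only. Of those with an unadjusted p under 0.05 on the log2 scale, VEGFA, STC1, F3, SYT13 and CCDC64B changed sign. Additive genes changed sign too, BNIP3L and RASSF2 among them, with linear interactions of 5.94 ± 15.7 and 7.49 ± 16.5% of control (SD, n = 3 replicates). SLC2A1, EGLN3 and CA12 kept theirs, with shortfalls of 10.6 ± 1.74, 23.7 ± 9.22 and 23.6 ± 22.4% of control (SD, n = 3 replicates). F3, the tissue factor that starts coagulation, which fell with HIF2A siRNA to 37.4% of control, was at 18.9% with both, against 26.1% if fold changes multiply and 7.18% if losses add.

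Genes lowered by a single siRNA, mostly by HIF1A siRNA, had a median interaction below 0 in the double knockdown. To measure this in libraries that had no part in choosing the genes, genes were chosen on 2 replicate numbers and measured in the third, HIF1A and EPAS1 left out. In replicate 1, the medians over 77 such genes, on the log2 scale, were -1.40 after HIF1A siRNA, 0.01 after HIF2A siRNA and -1.85 after both. Their median interaction was -0.31, and it was below 0 in 71.4% of them, against 50.7% of all genes. In replicate 2, 282 genes had a median interaction of -0.43, with 79.8% below 0 against 49.0%. In replicate 3, 72 genes had a median of -0.36, with 87.5% below 0 against 48.6%. The median was thus below 0 in all 3 replicate numbers. On the linear scale the medians were -8.02, -20.1 and -10.7% of control. Over all libraries, which also chose the genes, the 194 genes lowered by a single siRNA had a smaller median interaction of -0.14, with 75.8% below 0. The held-out sets of replicates 1 and 3 were almost all lowered by HIF1A siRNA (75 and 72 genes, against 2 and 0 lowered by HIF2A siRNA). The genes share libraries and are not independent, so no p is given.

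**Figure D3:**
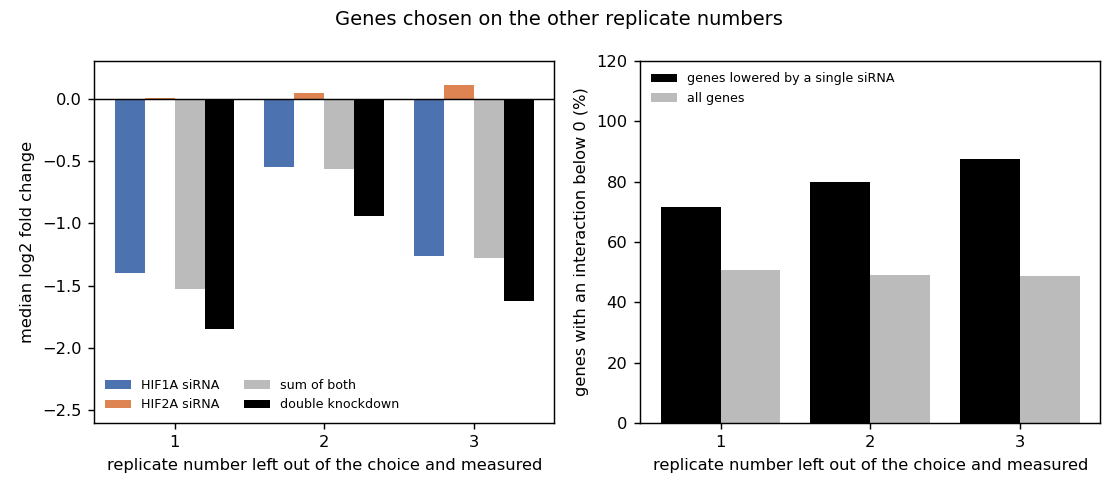
Left, median log2 fold changes of genes lowered by a single siRNA, chosen on the other replicate numbers and measured in the number on the x axis, for HIF1A siRNA, HIF2A siRNA, their sum per gene and the double knockdown. Right, the share of these genes with an interaction below 0 beside that of all genes; it was 71.4, 79.8 and 87.5% against 50.7, 49.0 and 48.6%.

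Of 13000 tested genes, 1143 changed in the double knockdown and with neither single siRNA. Of these, 40 that fell and 20 that rose had the redundant form given above. In the 649 that fell, the median sum of the single log2 fold changes was already -0.50, where the double knockdown had -0.63, and in the 494 that rose the medians were 0.46 and 0.60. The interval of the interaction was inside the limit for 541 of the 1143 (47.3%), a share near the 42.8% of all genes. These genes were chosen by their value in the double knockdown, which enters the interaction. In the replicate left out of the choice, the genes that fell had median sums of -0.78, -0.15 and -0.77 and double knockdown medians of -0.87, -0.46 and -0.94 in replicates 1, 2 and 3. Those that rose had sums of 0.48, 0.06 and 0.69 and double knockdown medians of 0.72, 0.39 and 1.07. The sum of the single changes came close to the double knockdown in replicates 1 and 3 for the genes that fell, and was short of it in replicate 2 and, for the genes that rose, in all 3. The held-out interaction was below 0 in 60.1, 73.0 and 74.3% of the genes that fell and in 27.5, 25.6 and 29.6% of those that rose. On the log2 scale both kinds thus moved further than the sum more often than not. On the linear scale the medians were 1.54, -18.7 and -1.99% of control for the genes that fell. For those that rose they were 30.3, 27.6 and 37.7%.

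Less than additive changes were called in 0 genes by edgeR and DESeq2. Every criterion was then taken at an unadjusted p under 0.05. Of 13000 tested genes, 15 changed in the same direction with both single siRNAs and had an interaction that opposed it. With the siRNAs 2 were lower and 13 higher. About as many, 12 lower and 2 higher, had an interaction of the same direction. The single changes that chose these genes share the control libraries. Of the 15, 4 were at 10 CPM or more, BIN1, PQLC1, TCTN2 and VAMP5, named after their values were seen. BIN1, which shapes membranes, was at 146% of control with HIF1A siRNA, 149% with HIF2A siRNA and 150% with both (interaction -0.53, interval -1.02 to -0.04). A further 10 genes were called with a single siRNA and missed the limit in the double knockdown, where their adjusted p ran from 0.0519 to 0.107 by edgeR quasi-likelihood. Among them SLC6A8, the creatine transporter, was at 63.0% of control with HIF1A siRNA, 121% with HIF2A siRNA and 79.3% with both, and LONP1, a mitochondrial protease, at 68.9, 114 and 81.5%. Additive changes would leave SLC6A8 at 76.3%, and its interaction was 0.06.

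Opposing genes were defined by changes of opposite sign with the single siRNAs, each at an unadjusted p under 0.05, and there were 19 (0.146%). At that limit HIF1A siRNA had 5.53% of all genes lower and 3.08% higher, and for HIF2A siRNA these shares were 3.65% and 3.03%. A count of 19 is small beside these shares, so nothing is read from the number of opposing genes. In all 19 the single siRNA groups differed directly at an adjusted p under 0.05, as did 1.92% of all genes; this comparison is part of what the rule used. With HIF1A siRNA 13 were lower and with HIF2A siRNA higher, among them CA9, NRN1, GYS1, SLC6A8 and SREBF1. The other 6, among them KDM1B, CLEC4E and CCL2, were higher with HIF1A siRNA and lower with HIF2A siRNA. The count was 0 without the replicate block, 10 without control siRNA replicate 2, 6 without control siRNA replicate 3 and 12 without replicate 3, so that membership depended on single libraries.

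In the double knockdown the 13 genes lower with HIF1A siRNA had a median log2 fold change of -0.33, where the sum of the single changes had -0.15, and the other 6 had 0.05 and -0.03. Sums near 0 follow from the rule, which chose single changes of opposite sign. In all, 4 of the 19 fell there. None of the 19 interactions was called, and 10 intervals lay inside the limit. The 4 that fell were CA9, NRN1, GYS1 and ABCB6, of which the first 3 also had the largest changes with HIF1A siRNA. CA9, the membrane carbonic anhydrase used as a marker of clear cell carcinoma, was at 252, 283 and 144 CPM with control siRNA, 26.2, 20.7 and 9.15 with HIF1A siRNA, 312, 405 and 197 under HIF2A siRNA and 16.3, 16.0 and 6.77 with both. In each replicate it was highest with HIF2A siRNA and lowest with both siRNAs. The 135% of control with HIF2A siRNA did not pass the test (adjusted p = 0.45 by edgeR quasi-likelihood, Benjamini-Hochberg). Additive changes would leave 10.8% of control and 5.61% was measured, an interaction of -0.94 (interval -1.39 to -0.50) that was -0.97, -0.88 and -0.87 by replicate. DESeq2 called it at an adjusted p of 0.0295 and edgeR did not (0.540).

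NRN1, a neuritin, followed HIF1A siRNA, with 17.7% of control, 146% with HIF2A siRNA and 20.8% with both. GYS1, the muscle glycogen synthase, had 142, 132 and 149 CPM with control siRNA, 55.2, 57.8 and 73.8 with HIF1A siRNA, 168, 178 and 181 under HIF2A siRNA and 68.1, 56.7 and 85.1 with both. Its HIF2A siRNA libraries were higher than all controls, and those with both siRNAs overlapped those with HIF1A siRNA. SREBF1, a regulator of lipid synthesis, stood at 70.8, 130 and 95.3% of control. Of the genes with the reverse pattern, KDM1B, a histone demethylase, was at 123, 78.5 and 110%, CLEC4E, a C-type lectin receptor, at 141, 54.7 and 96.5%, and CCL2, a chemokine that attracts monocytes, at 145, 64.9 and 105%. None of these 4 passed the test in any comparison with control siRNA. HIF1A siRNA differed from HIF2A siRNA in each (adjusted p from 0.00098 to 0.012 by edgeR quasi-likelihood, Benjamini-Hochberg). That difference follows from the rule, which chose single changes of opposite sign, and adds no support.

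**Figure D4:**
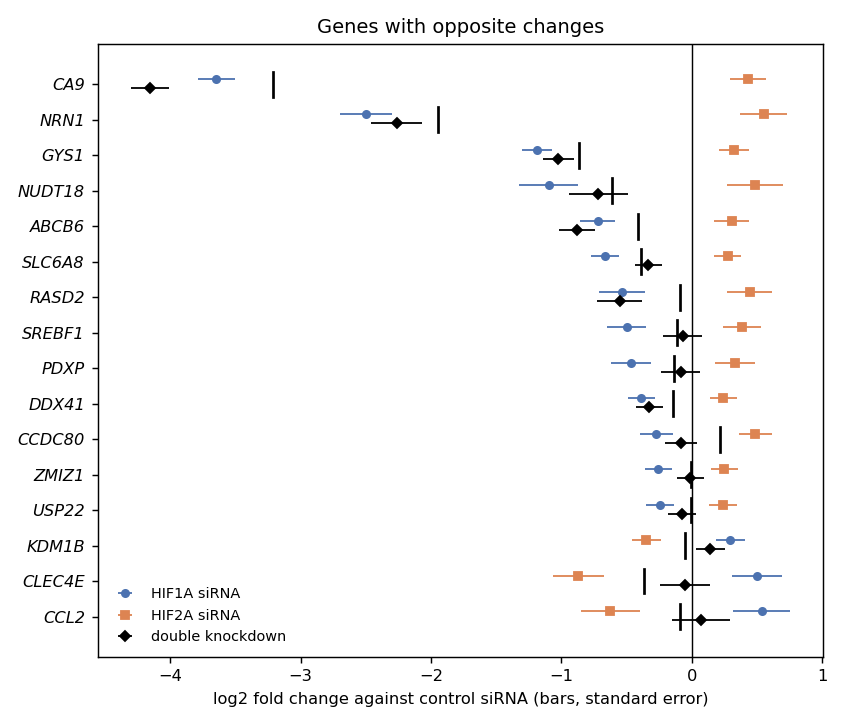
Log2 fold change against control siRNA with HIF1A siRNA, HIF2A siRNA and both (symbols, with standard errors) for 16 of the 19 opposing genes, the 13 lower with HIF1A siRNA and 3 of the reverse pattern; black ticks mark the sum of the single changes. For CA9 the double knockdown, at -4.16, lies left of the tick.

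By function, glycolysis had the highest share of interactions below 0 among the 15 lists of known function. Of 26 tested glycolytic and glycogen genes, 21 fell with HIF1A siRNA, 1 with HIF2A siRNA (SLC2A1) and 25 in the double knockdown, and 24 (92.3%) had an interaction below 0 against 49.7% of all genes, with a median of -0.15 against 0.00. The median was close to the -0.14 of all genes lowered by a single siRNA, of which 75.8% were below 0. Their interactions reached an unadjusted p under 0.05 in 6, all below 0, among them SLC2A1, ENO2, PFKFB4 and LDHA. PFKFB4, which sets fructose 2,6-bisphosphate, was at 17.6% of control with HIF1A siRNA and at 13.9% with both (interaction -0.59, interval -1.02 to -0.16). LDHA, lactate dehydrogenase, had 49.1, 99.0 and 37.9% (interaction -0.36, interval -0.68 to -0.04). For 13 of the 26 the interval lay inside the limit. Without replicate 2, 15 of the 26 were below 0, with a median of -0.07, and in the other fits 19 to 24 were.

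The study derived its lists from the control and single siRNA libraries used here and left out genes that both siRNAs lowered. These lists are not independent evidence. They gave 171 of 222 HIF-1 genes below 0 with a median of -0.13 and 17 of 19 HIF-2 genes with a median of -0.23. Among HIF-2 responsive genes, CCND1, the cyclin D1 gene, was at 102% of control with HIF1A siRNA, 64.3% with HIF2A siRNA and 51.7% with both (interaction -0.35, interval -0.65 to -0.05). IRS2, an insulin receptor substrate, had 83.0, 39.2 and 23.5% (interaction -0.47, interval -0.89 to -0.05), and TRIB3, a stress-induced pseudokinase, had an interaction of -0.45 (interval -0.77 to -0.13). None of these 3 was called.

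Several of the remaining lists depended on single replicate numbers. With all libraries most lay closer to the 49.7% of all genes, but interferon-stimulated genes went from 12 of 19 below 0 to 3 (median 0.85) without replicate 1 and 18 (median -0.72) without replicate 2. Without replicate 2 the counts were also 2 of 15 for DNA replication, 2 of 10 for RNA interference and 3 of 13 for the HIF pathway. Without replicate 1, 9 of 10 RNA interference genes and 8 of 10 growth factor signalling genes were below 0. Interactions below 0 were counted in 7 of 13 HIF pathway genes (median -0.01), 5 of 9 mitophagy and respiration genes (-0.01), 8 of 14 angiogenic and secreted factors (-0.13), 3 of 5 pH regulators (-0.10), 6 of 9 collagen-modifying enzymes (-0.12), 3 of 6 histone demethylases (0.01), 8 of 17 growth and cell cycle genes (0.02), 5 of 10 growth factor signalling genes (-0.04) and 10 of 17 stress genes (-0.02). Among secreted factors STC1, stanniocalcin 1, stood at 21.9% of control with HIF1A siRNA, 86.6% with HIF2A siRNA and 11.6% with both (interaction -0.71, interval -1.21 to -0.20). Interactions below 0 were also counted in 12 of 19 interferon-stimulated genes (-0.05), 7 of 12 NF-kB and cytokine genes (-0.17), 7 of 15 DNA replication genes (0.01) and 4 of 10 genes of the RNA interference machinery (0.04). Sterol and fatty acid synthesis had 11 of 13 below 0 and a median of -0.16, but 5 of 13 and 0.02 without replicate 2 and 7 of 13 without its HIF2A siRNA library, and 2 of its 13 genes fell in the double knockdown and 0 had an unadjusted p under 0.05 for the interaction.

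**Figure D5:**
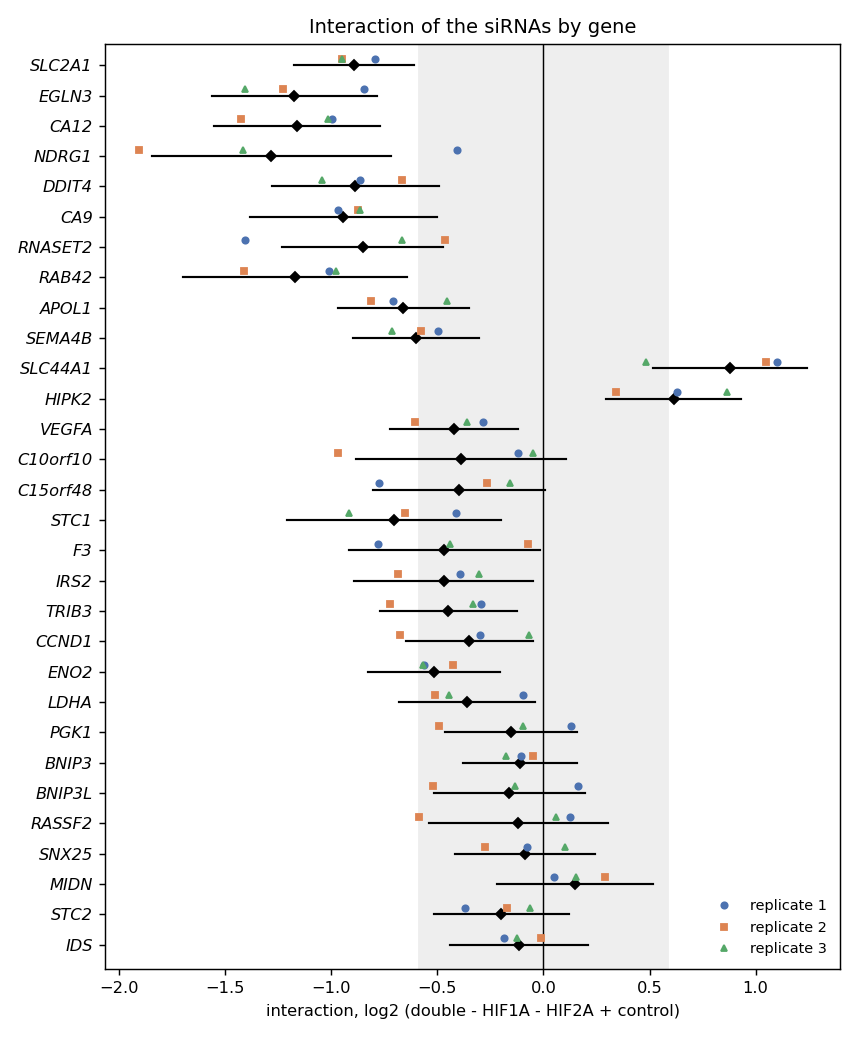
Interaction (log2) of 30 genes, with diamonds for the estimate from all 12 libraries, lines for its 95% interval and coloured symbols for the value in each replicate number. The grey band is the additive limit of 1.5-fold, and the intervals from PGK1 downward lie within it. SLC2A1, EGLN3, CA12 and NDRG1 are among the genes with intervals wholly to its left.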

How the data were processed

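The deposited files hold raw read counts per gene that the authors made from their reads with Trim Galore 0.3.3, HISAT2 2.05 (hg19), Picard 2.0.1 to drop non-unique fragments and HTSeq 0.5.4p3. Whether counting used strand is not given in the sources used here, so reads of overlapping antisense genes may not be told apart, and close paralogs lose shared reads. The 13000 of 23106 genes that passed edgeR's filterByExpr (minimum count 10, minimum total 15) entered 1 quasi-likelihood fit of all 12 libraries (edgeR 4.0.16, R 4.3.3, TMM) with the replicate number as a block, as the study paired conditions by replicate. Deviations from group means correlated at 0.0991 to 0.813 between same-numbered libraries (median 0.518) and at -0.724 to 0.527 between others (median -0.364). Replicate 3 stood apart, whereas numbers 1 and 2 separated only in part: control siRNA replicate 2 correlated at 0.527 with HIF2A siRNA replicate 1 and at 0.231 with HIF2A siRNA replicate 2. Values within a replicate number rest on this pairing. Values within a replicate used log2(CPM + 0.5). The interaction test was also run on simulated counts, drawn independently around the fitted means. Such counts do not hold the partial pairing seen here, and no result in this text rests on that run. DESeq2 1.42.0 and limma 3.58.1 were alternatives, as were other filters, scalings, limits and omitted libraries. The linear scale and the lists without 1 replicate number were added after seeing the data. Genes were named by rule: the targets and ARNT, the 5 smallest interaction p-values, up to 10 opposing genes, up to 10 additive genes with a share from both siRNAs and 8 others, genes called by both single siRNAs, up to 4 of each list by interaction p, and a set of known targets such as CA9. Others, those with the 20 smallest interaction p-values among them, were chosen after their values were seen. Members and lists were chosen with earlier results of these data known. Promoter sequences came from RefSeq (GRCh38.p14) by symbol; no coordinate of the files' build was used. Among the opposing genes, 1 gene is not reported here.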

Additional observations from a re-analysis of the deposited data

Results flagged for a closer look

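The effect of HIF2A siRNA differed between cells with and without HIF1A siRNA, by the test of the interaction at an adjusted p under 0.1 with edgeR's quasi-likelihood test, in SLC2A1 (-0.90), EGLN3 (-1.18) and CA12 (-1.16). All 3 were below 0 in each of the 3 replicate numbers, which are the libraries whose interaction p chose these genes. At the limit of 0.05 the fit reported here called none of them. DESeq2 called all 3, as did edgeR without a filter on low counts or with GC content and length corrected, while edgeR without HIF2A siRNA replicate 1 called EGLN3 and CA12 and without replicate 2 of that siRNA called SLC2A1.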

How the results depend on the processing

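The interaction of the siRNAs was called in 0 genes; no filter on low counts gave 4, DESeq2 11, a GC and length correction 3 and an adjusted p under 0.1 3, with the same counts (4, 11, 3 and 3) of more than additive genes. DESeq2 gave 298 genes for HIF1A siRNA, 82 for HIF2A siRNA, 434 for HIF1A against HIF2A siRNA, 4 redundant, 145 additive (17 with both siRNAs) and 214 undecided. HIF2A siRNA had 55 without the filter, 46 with the GC correction, which also gave 136 additive (18 with both), and 42 at 0.1, where the double knockdown had 2119. Without the replicate block the counts were 47, 2, 195 and 55 for HIF1A siRNA, HIF2A siRNA, the double knockdown and the single siRNAs compared, with 0 opposing, 5 additive (1 with both) and 44 undecided genes. A limit of 2-fold gave 164 additive (22 with both) and 39 undecided, and the narrower limit gave 3, 0 and 200. At an adjusted p under 0.1 the held-out median of replicate 1 was -0.24.

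Leaving out 1 library or replicate number gave 0 to 3 for the interaction and for more than additive genes, 73 to 317 for HIF1A siRNA, 1 to 49 for HIF2A siRNA, 302 to 2307 for the double knockdown, 107 to 311 between the single siRNAs, 6 to 23 opposing, 3 to 173 additive (0 to 52 with both) and 69 to 183 undecided genes. The low ends came mostly without replicate 3 and the high ends without replicate 2 or its HIF2A siRNA library. The sign of CCDC64B reversed to -0.15 with limma on log2(CPM + 2) and to -0.61 on the linear scale, where VEGFA (0.10), STC1 (0.0715), F3 (0.20) and SYT13 (0.0100) also reversed, in CPM relative to the gene's mean. The causes were not tested. Intervals of the interaction reached past 1.5-fold for 119 of 203 genes. Libraries of 1 group differed by 16.3 to 122 times counting noise (chi-square per degree of freedom), so that the spread between replicates exceeded what depth sets.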
